A study of Homo sapiens with 6 samples.

Results

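HLA class II molecules are pairs of an alpha and a beta chain that show peptides from the endosome to CD4+ T cells, and B cells carry them all the time. Their promoters share a short module in which an X box is bound by RFX and CREB and a Y box by NF-Y, and the coactivator CIITA docks on this assembly without binding DNA itself. CIITA has alternative promoters, of which pI is known from dendritic cells and macrophages, pIII from B cells and pIV from the response to interferon-γ. The genes described here are HLA-DRA and HLA-DRB1, HLA-DQA1 and HLA-DQB1, HLA-DPA1 and HLA-DPB1, which encode the chains of HLA-DR, HLA-DQ and HLA-DP, HLA-DMA and HLA-DMB, which encode the peptide editor HLA-DM, CD74, which encodes the invariant chain that guards the groove, and CIITA.

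Every ATAC-seq peak was taken that overlapped the hg19 body of one of these 10 genes or the 5000 bp on each side. Peaks of all libraries that overlapped or adjoined were merged into regions, and 22 of the 56447 regions in the data lay at the 10 genes. The 6 libraries were from GM12878, a human lymphoblastoid line, which is made of B cells transformed by Epstein-Barr virus. All cells were fixed with 1% formaldehyde, lysed with 0.05% Igepal CA-630, transposed with Tn5 and reverse crosslinked at 65 °C. The SDS buffer libraries (n = 2) were reverse crosslinked with 1% SDS and purified, the non-SDS buffer libraries (n = 2) had no SDS and were purified, and the unpurified libraries (n = 2) had no SDS and went directly into PCR. All 6 come from the same cell line, the labels do not say whether replicates were separate cultures, and the spread between them may be technical.

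For each peak, the number of reads stacked at its summit was solved from the fold enrichment and p value in the deposited lists. Values for the 6 libraries are given below in the order SDS buffer, non-SDS buffer and unpurified, replicate 1 before replicate 2. The libraries held 37654, 34826, 38023, 30136, 36252 and 34438 peaks, with a median of 22, 20, 21, 20, 22 and 22 reads at the summit. The lowest local background, which scales with depth, was 1.74, 1.52, 1.58, 1.51, 1.76 and 1.86 reads. A region without a peak in a library has an unknown number of reads there, which is not to be read as 0. The B cell label was checked at the promoters of marker genes. All 7 B cell markers had a promoter peak in at least 1 library, and MS4A1, which encodes CD20, and EBF1 had one in all 6. Of 12 markers of T cells, erythroid cells, myeloid cells and liver, 10 had none in any library. The exceptions were CD14 in 4 libraries and CD8A, whose peak in 6 libraries lay at an alternative start and not at its canonical one.

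The reference sequence around most of these starts holds the letters of the Y box, ATTGG, to which NF-Y binds. Searched on both strands in the 300 bases around the canonical start, they were present at 8 of the 10 genes and at 36.0% of the starts of 19540 protein-coding genes. The canonical starts of HLA-DPA1 and CIITA had none. On the sense strand of the genes shown, the copy nearest before the canonical start lay 46 bp before it at HLA-DRB1, 68 bp at HLA-DQA1, 88 bp at HLA-DQB1, 99 bp at HLA-DPB1 and 49 bp at HLA-DMA. The 54 bases around each copy are shown to let the promoters be compared, and capitals mark the Y box letters on this strand, of which the HLA-DMA stretch holds 2 copies.
HLA-DRB1: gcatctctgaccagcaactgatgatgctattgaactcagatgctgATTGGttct
HLA-DQA1: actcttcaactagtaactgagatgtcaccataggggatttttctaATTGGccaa
HLA-DQB1: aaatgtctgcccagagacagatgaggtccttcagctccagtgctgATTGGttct
HLA-DPB1: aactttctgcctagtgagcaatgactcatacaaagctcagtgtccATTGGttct
HLA-DMA: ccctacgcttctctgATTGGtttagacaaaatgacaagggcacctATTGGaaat

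In hg19 these stretches lie at chr6:32557663-32557716 on the minus strand for HLA-DRB1, chr6:32605070-32605123 on the plus strand for HLA-DQA1, chr6:32634514-32634567 on the minus strand for HLA-DQB1, chr6:33043623-33043676 on the plus strand for HLA-DPB1 and chr6:32920915-32920968 on the minus strand for HLA-DMA. The Y box letters of all 5 lay inside a region that at least 1 library called. The 11 peaks in these regions had their summits 36 to 199 bp from the middle of the copy nearest the start, with a median of 54 bp. HLA-DMA gave 6 of these 11 peaks, 1 per library. At other promoters with the letters, neither overlap with peaks nor distance was measured. At HLA-DMA, the gene with a peak in every library, the summit lay 44 bp away in non-SDS buffer replicate 1 and 199 bp away in SDS buffer replicate 2.

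Across the 10 genes, the regions fell into a strong CD74 promoter, CIITA and HLA-DMA promoters at intermediate height, and 8 other HLA promoter regions of 11 to 16 reads. In bulk libraries, fewer cells with an open promoter and less access per cell cannot be told apart. Of the 22 regions, 7 were called in all 6 libraries, 2 in 5, 1 in 4, 2 in 3, 3 in 2 and 7 in 1. That is 31.8% called in all 6, beside 35.5% of all regions. By place, 16 regions lay within 1000 bp of a protein-coding transcript start, 5 in introns and 1 between genes. The bodies of HLA-DMA and CIITA reach into neighbours, and 4 of the 7 regions in all 6 libraries lay at promoters of other genes. They were 2 regions at BRD2, which encodes a bromodomain reader of acetylated histones, 1 at DEXI and 1 at CLEC16A. The BRD2 region at chr6:32936033-32936734, with a mean of 31.0 reads, is also within 1000 bp of an alternative HLA-DMA start. Without them, 3 of 18 regions, or 16.7%, were called in all 6. These 3 were the CD74 promoter, the HLA-DMA promoter and a region between HLA-DRB1 and HLA-DQA1.

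**Figure D1:**
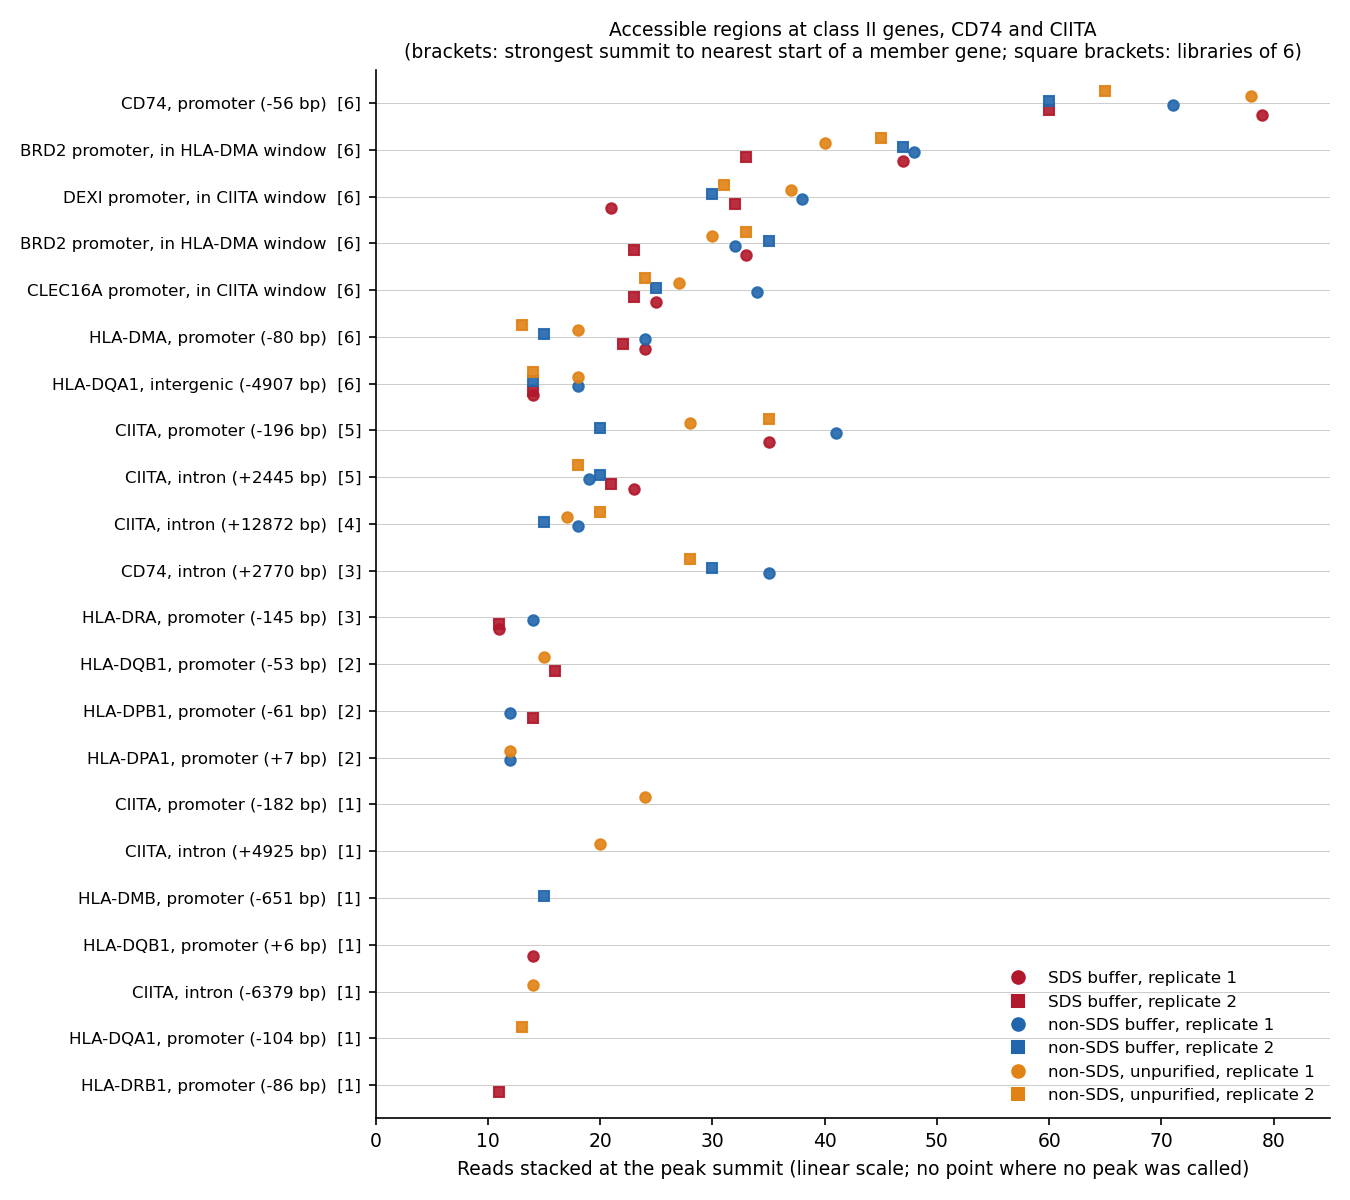
Reads at the peak summit (x axis, linear) for each of the 22 regions (y axis) in each of the 6 libraries, coloured by protocol and shaped by replicate, with no point where a library called no peak. The CD74 promoter lies at 60 to 79 reads, and the HLA promoters called in fewer than 6 libraries lie at 11 to 16 reads.

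CD74 had the most accessible promoter. Its region at chr5:149791983-149792858 held 79, 60, 71, 60, 78 and 65 reads at the summit, 68.8 ± 8.52 (SD, n = 6 libraries). All 3 protocols overlapped there. Its peak was among the strongest 3.12% to 9.37% of the peaks of each library, and its fold over the local background was 6.14 to 7.80. Of the 12018 genes with a promoter peak in any library, 7.97% had a higher mean at their best promoter region. Its strongest summit, at position 149792388, lay 56 bp before the CD74 start at position 149792332, which is not the canonical one. Relative to the canonical start, at position 149792473, this summit was inside the gene, in an exon. The 150 bases before the canonical start, the most upstream of a protein-coding CD74 transcript, are chr5:149792474-149792623 on the minus strand. They lie within the same region but do not hold that summit. Capitals mark the Y box letters on the other strand, CCAAT, which were found once in them.
CD74 upstream: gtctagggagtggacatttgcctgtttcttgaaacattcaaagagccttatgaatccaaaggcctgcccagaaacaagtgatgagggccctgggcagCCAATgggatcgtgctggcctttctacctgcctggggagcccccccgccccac

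A second CD74 region lay in an intron at chr5:149789380-149789773, with its strongest summit 2770 bp into the gene. It held 35 and 30 reads in the non-SDS buffer libraries and 28 in unpurified replicate 2, and no peak was called in the other 3 libraries. Its local background, 9.95 reads, was 6.06 times the lowest of the same libraries, so that its fold was 2.94 on average. In the libraries that did not call it, a summit of at least 23 reads was needed by estimate.

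CIITA carried 8 regions, 6 of them its own. The canonical start, at position 10971059, is that of the transcript from pIII. The region over it, chr16:10970654-10971141, held 35 reads in SDS buffer replicate 1, 41 and 20 in the non-SDS buffer, and 28 and 35 in the unpurified libraries. SDS buffer replicate 2 had no peak there, and at least 16 reads would have been needed by estimate. The 5 values overlapped between the protocols, with a mean of 31.8 ± 8.04 reads (SD, n = 5) and a mean −log10 q of 11.1. Of genes with a promoter peak, 44.5% had a higher mean over the libraries that called it, which for CIITA leaves out a library of unknown height. Its summits were spread over 292 bp, the strongest of them 196 bp before the nearest CIITA start.

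At the next CIITA start downstream, position 10972826, the place of pIV, unpurified replicate 1 had a peak of 24 reads at chr16:10972338-10972848. No peak was called there in the other 5 libraries. No library had a peak within 1000 bp of the upstream start at 10960079, the place of pI, or of the start at 11016024. Between pI and pIII, in an intron, chr16:10962420-10962897 held 23, 21, 19 and 20 reads in the purified libraries, none called in unpurified replicate 1 and 18 in unpurified replicate 2. These 5 values had a mean of 20.2 ± 1.92 (SD), and the strongest summit was 2445 bp from the nearest start. A further intronic region, chr16:10964903-10965130, was called in unpurified replicate 1 with 20 reads and in no other library. Downstream of pIV, chr16:10985523-10985981 held 18 and 15 reads in the non-SDS buffer and 17 and 20 in the unpurified libraries, and it was not called in either SDS buffer library, where at least 11 reads were needed by estimate. The last of its own regions, chr16:11009584-11009879, had 14 reads in unpurified replicate 1 alone. Unpurified replicate 1 was thus the only library with a peak in 3 of the 6 CIITA regions, and it had none in the region that the other 5 shared.

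**Figure D2:**
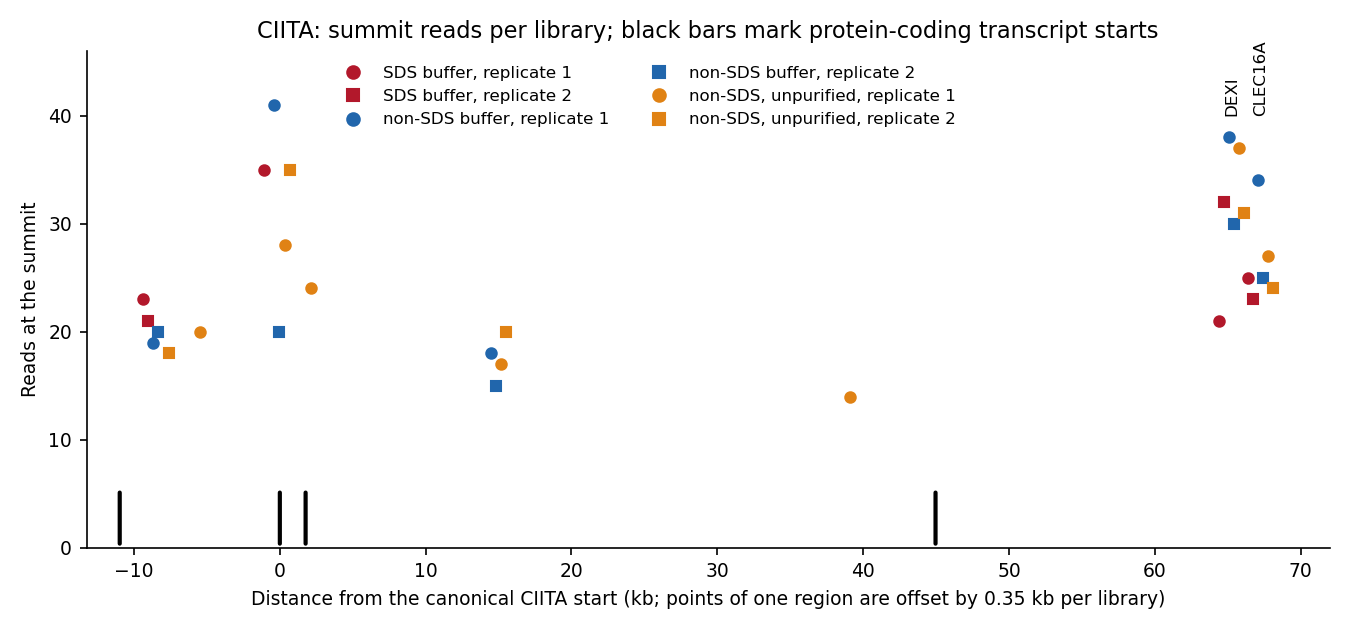
Reads at the summit (y axis) against distance from the canonical CIITA start in kb (x axis), 1 point per library that called the region, with black bars at the starts of protein-coding transcripts. The 5 points at the canonical start lie at 20 to 41 reads, those at the DEXI promoter at 21 to 38, and no point sits at the most upstream start.

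Among the HLA genes, HLA-DMA had a promoter peak in every library. Its region at chr6:32920652-32921334 held 24, 22, 24, 15, 18 and 13 reads, 19.3 ± 4.72 (SD, n = 6), at a fold of 4.90 to 7.67 over the local background. Both SDS buffer libraries were above both unpurified ones, and the non-SDS buffer libraries spanned most of that range. HLA-DMB, which encodes the partner chain, had a promoter peak of 15 reads in non-SDS buffer replicate 2 alone, at chr6:32909314-32909589, 651 bp before its start.

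HLA-DRA, which encodes the nearly invariant alpha chain of HLA-DR, had 11, 11 and 14 reads at its promoter region, chr6:32407426-32407810, in both SDS buffer libraries and in non-SDS buffer replicate 1. It was not called in the other 3 libraries. Its mean rank, 89.7% of the way down the lists, placed it among their weakest peaks. The promoter of HLA-DRB1, which encodes the polymorphic beta chain, was called in SDS buffer replicate 2 alone, with 11 reads at chr6:32557548-32557755. Accessibility at the 2 promoters cannot be ordered from these values, since the reads in libraries without a call are unknown.

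The promoter of HLA-DQA1 at chr6:32604969-32605193 was called in unpurified replicate 2 alone, with 13 reads. HLA-DQB1 had 14 reads at its canonical start in SDS buffer replicate 1, at chr6:32634323-32634601. At an alternative start further upstream, chr6:32635819-32636417 held 16 reads in SDS buffer replicate 2 and 15 in unpurified replicate 1, so that HLA-DQB1 had a promoter peak in 3 libraries when both starts were counted and in 1 at the canonical start. The HLA-DPB1 promoter, chr6:33043546-33043829, held 14 reads in SDS buffer replicate 2 and 12 in non-SDS buffer replicate 1. HLA-DPA1 had no peak at its canonical start, at position 33048487, in any library. At another HLA-DPA1 start, chr6:33041311-33041570 held 12 reads in non-SDS buffer replicate 1 and 12 in unpurified replicate 1. At each of these 5 regions, no protocol had both of its libraries.

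The 8 HLA promoter regions that were called in fewer than 6 libraries held 11 to 16 reads at a fold of 3.95 to 6.74, and their mean ranks were 57.3% to 92.8% of the way down the lists. Where they were not called, at least 8 to 13 reads were needed by estimate, and how many reads lay there is unknown. The margin differed between them, for example from 11 reads at HLA-DRA in SDS buffer replicate 1, with a −log10 q of 3.40, to 15 and 16 at the upstream HLA-DQB1 start, with a mean −log10 q of 8.31. Only the upstream HLA-DQB1 region, at a fold of 5.79 to 6.74, reached the range of the CD74 promoter, 6.14 to 7.80. HLA-DRA, both HLA-DQB1 regions and HLA-DPB1 reached that of HLA-DMA, 4.90 to 7.67, in at least 1 library. The others reached neither. Reads at the summit of the CD74 promoter were several times those of the 8 regions. Its local background was 9.33 reads, where that of the HLA-DRA promoter was 1.94.

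Mapping may bear on these genes because class II sequence is polymorphic and has close paralogs. Reads had been kept by mapping quality, and the peaks lay on the 24 main chromosomes, without the alternative haplotypes of the region. Of the 75-base words within 1000 bp of the canonical start, 3.68% were repeated elsewhere in the reference for HLA-DRB1, 0.311% for HLA-DQA1, 0.0519% for HLA-DRA and 0 for the other 7 genes. Over the gene and 5000 bp on each side the share was 0.0245% at HLA-DMB to 3.63% at HLA-DRB1. Exact repeats of 75 bases within the reference were thus few around canonical starts other than that of HLA-DRB1. Similar but not identical sequence of paralogs was not measured, and whether repeats bear on the calls was not tested. How many reads were lost where the alleles of GM12878 differ from the reference was not tested.

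By the number of libraries, most of the 10 lay between the extremes where most genes lie, and by height most lay low. A promoter peak in all 6 libraries was present at 2 of the 10, CD74 and HLA-DMA, beside 45.6% of 19821 protein-coding genes. With canonical starts only it was present at the same number, 2 of the 10, beside 43.4% of 19540 genes. In 1 to 5 libraries it was present at 8 of the 10, beside 15.0% of all genes. None of the 10 lacked a promoter peak in every library, where 39.4% of all genes did. Both counts depended on the threshold: with peaks of −log10 q from 5 up, HLA-DRB1, HLA-DPA1 and HLA-DMB had a promoter peak in 0 libraries, and with canonical starts only, HLA-DPA1 had 0. By mean reads at the best promoter region, HLA-DRA, HLA-DRB1, HLA-DQA1, HLA-DQB1, HLA-DPA1, HLA-DPB1 and HLA-DMB were exceeded by 87.2% to 98.8% of the genes with a promoter peak, and HLA-DMA by 74.5%. No test was made of these shares, since the 10 genes were chosen and are not independent.

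**Figure D3:**
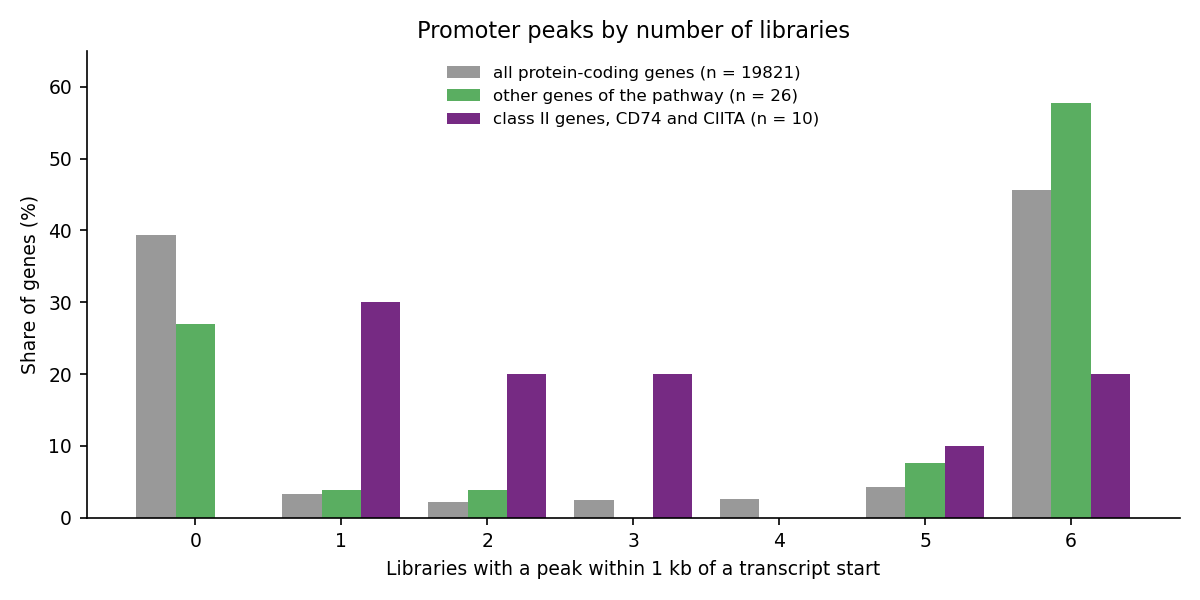
Share of genes (y axis, %) by the number of libraries with a peak within 1 kb of a protein-coding transcript start (x axis), for all protein-coding genes (grey), 26 other genes of the pathway (green) and the 10 genes described here (purple). All genes are split between 0 and 6 libraries, and 8 of the 10 lie between.

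The other genes of the pathway are given by role, beside 45.6% of all protein-coding genes with a promoter peak in all 6 libraries. The 7 genes of the proteins that bind the X and Y boxes, RFX5, RFXAP and RFXANK of RFX, CREB1, and NFYA, NFYB and NFYC of NF-Y, had a promoter peak in all 6 libraries. Their mean height was 26.2 reads at NFYC to 96.8 at CREB1. Of 9 regulators and partners of CIITA, 6 had one in all 6 libraries, among them IRF4 with 36.3 reads and IRF1 with 50.5. IRF8 and the coactivator CREBBP had one in 5 libraries, and SPI1, which encodes PU.1, had none. Of the 5 other class II genes, HLA-DOA, a chain of the HLA-DM inhibitor HLA-DO, had a peak in 2 libraries with a mean of 12.5 reads, and HLA-DOB, HLA-DRB5, HLA-DQA2 and HLA-DQB2 had none. HLA-DRB5 is carried by some haplotypes and not by others. Of 5 genes of peptide processing in the lysosome, CTSD and LGMN had a promoter peak in all 6 libraries, CTSS, which encodes the protease that trims the invariant chain, had one in 1, and CTSL and IFI30 had none. In all, 15 of the 26, or 57.7%, had a promoter peak in all 6 libraries, beside 45.6% of all genes.

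Several accessible regions lay between the class II genes. Over the 659.819 kb from 5000 bp before HLA-DRA to 5000 bp beyond HLA-DPB1, 21 regions were called, 8 of them in all 6 libraries, beside 35.5% of all regions. The region between HLA-DRB1 and HLA-DQA1, chr6:32590293-32591296, held 14, 14, 18, 14, 18 and 14 reads, 15.3 ± 2.07 (SD, n = 6). It was the only one of the 22 regions that lay between genes, and its strongest summit was 4907 bp before the most upstream HLA-DQA1 start. Merged over libraries it was the widest of the 22, at 1004 bp, and its summits were spread over 594 bp. In single libraries its peaks covered 506 to 837 bp, where those of the CD74 promoter covered 667 to 849 bp. All 3 protocols overlapped in reads. The 121 bases around the strongest summit, chr6:32590989-32591109, are shown on the plus strand, with the 11 central bases in capitals. The Y box letters were in them on neither strand, and 31.4% of the bases were G or C.
HLA-DQA1 upstream region: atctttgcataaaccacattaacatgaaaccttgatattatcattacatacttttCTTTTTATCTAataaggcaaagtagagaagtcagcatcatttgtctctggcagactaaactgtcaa

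Outside the windows of the 10 genes, a further region at chr6:32577605-32578249, also between HLA-DRB1 and HLA-DQA1, was called in all 6 libraries with 12 to 20 reads. On the far side of HLA-DQB1, chr6:32653368-32653765 was called in 5 libraries with a mean of 14.6 reads. The promoters of PSMB8, PSMB9 and TAP1, which serve class I presentation and lie between HLA-DQB1 and HLA-DMB, were in 2 regions called in all 6 libraries with means of 20.8 and 20.0 reads. A promoter region of TAP2 in the same interval, chr6:32806414-32806773, was called in 3 libraries with a mean of 15.7 reads. Other regions between genes were called less often, chr6:32995743-32995957 in 1 library with 11 reads and chr6:32997131-32997490 in 2 with a mean of 15.0. Of the 9 regions of the span outside the windows of the 10 genes, 6 had no gene at the summit. They include the promoter regions of TAP2 and HLA-DOA, and 1 of the 6 was called in all 6 libraries. Apart from them, chr6:32862215-32862717, with only genes without a symbol at its summit, was called in all 6 libraries with a mean of 15.3 reads.

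**Figure D4:**
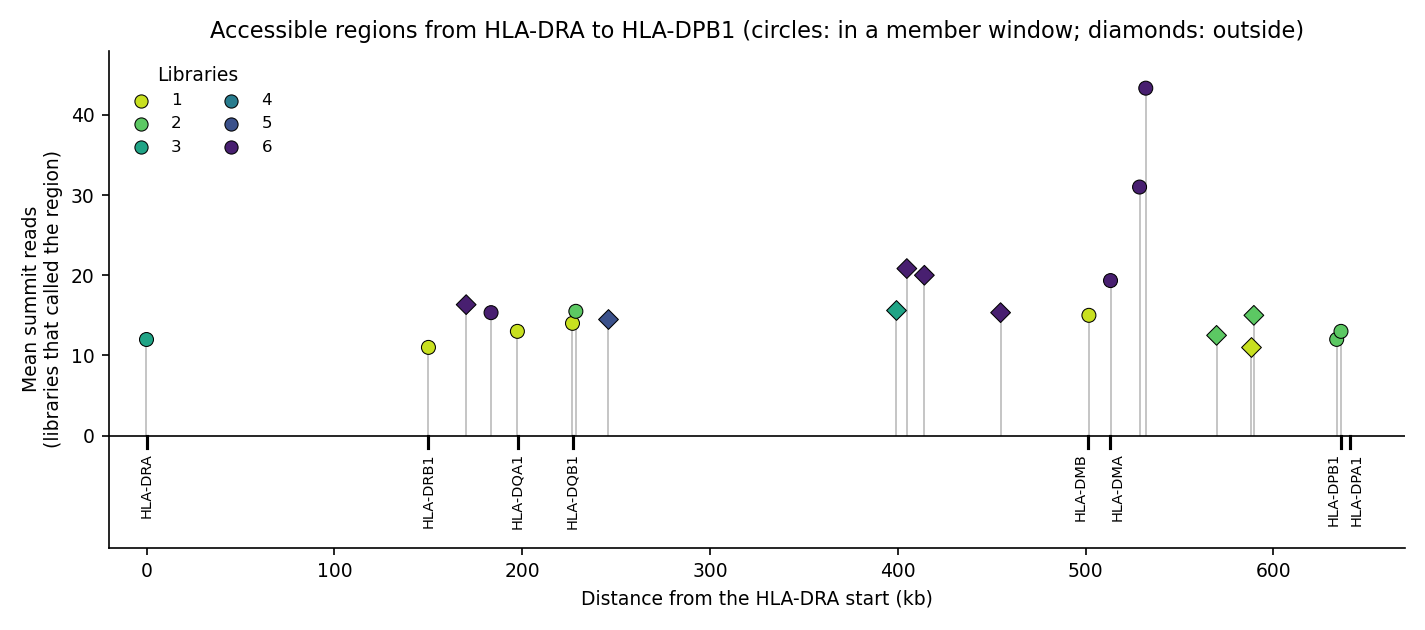
Mean reads at the summit over the libraries that called a region (y axis) against distance from the HLA-DRA start in kb (x axis), coloured by the number of libraries, with circles in the windows of the member genes, diamonds outside and ticks at canonical starts. The regions near 170 and 183 kb were called in 6 libraries, the promoter regions of HLA-DRB1, HLA-DQA1 and HLA-DQB1 in 1 or 2 each, and the rightmost diamonds in 1 or 2.

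The wider MHC was compared in the same way, with GABBR1 and KIFC1 as its ends, a span chosen after its values were seen. In it, 32.1% of 156 protein-coding genes had a promoter peak in all 6 libraries, and 33.1% without the class II genes described here. The share was 37.8% among 172 genes in the 4 Mb on each side and 51.4% among the 872 genes of chromosome 6 outside the MHC. A promoter peak in 1 to 5 libraries was present at 28.2% of MHC genes, 25.0% without the class II genes described here, 27.3% of genes in the flanks and 16.3% of genes of chromosome 6 outside the MHC.

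Whether the reverse crosslinking protocol altered accessibility at these genes was compared over libraries, and with 2 libraries against 2 the smallest two-sided p of an exact permutation test is 0.333. The libraries had 11, 12, 15, 12, 14 and 12 peaks at the 10 genes. The mean was 11.5 ± 0.707 with the SDS buffer, 13.5 ± 2.12 with the non-SDS buffer and 13.0 ± 1.41 without purification (SD, n = 2 each). All 3 groups overlapped, and the exact permutation p was 0.667 for the non-SDS buffer and for the unpurified libraries against the SDS buffer and 1 for the unpurified libraries against the non-SDS buffer (two-sided, 6 comparisons in all, each adjusted p 1). Per 10000 peaks of a library the 10 genes had 2.92, 3.45, 3.94, 3.98, 3.86 and 3.48 peaks, in which both SDS buffer libraries were below the other 4.

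Summit height was set relative to the median summit of the library over regions called in all 6, and averaged over the 7 such regions at the 10 genes. It was 1.12, 1.10, 1.22, 1.24, 1.14 and 1.07. The non-SDS buffer libraries lay above the SDS buffer by 0.124 and above the unpurified libraries by the same, without overlap, which gives the smallest p the design allows (exact permutation p = 0.333, adjusted 1). The unpurified libraries and the SDS buffer differed by -0.000384 (exact permutation p = 1). This order depended on the promoters of BRD2, DEXI and CLEC16A. Over the CD74 promoter, the HLA-DMA promoter and the region upstream of HLA-DQA1 alone, the values were 1.26, 1.19, 1.22, 1.14, 1.23 and 1.02, all groups overlapped, and the non-SDS buffer minus the SDS buffer was -0.0436 (exact permutation p = 0.667).

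**Figure D5:**
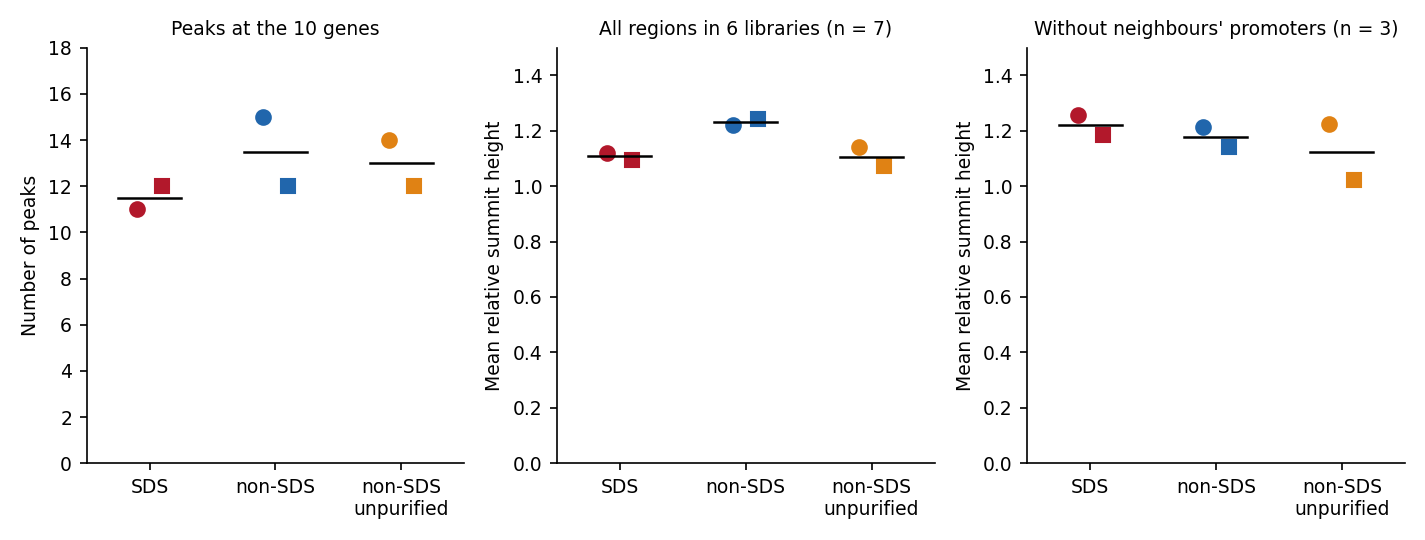
Number of peaks at the 10 genes (left) and mean relative summit height over 7 regions (middle) and over the 3 that are not promoters of other genes (right), with 1 point per library and a line at the mean of each protocol. The non-SDS buffer stands apart in the middle panel and not in the right one.

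Single regions were also compared between protocols. The CD74 intron and the CIITA intron downstream of pIV were called in both non-SDS buffer libraries and in neither SDS buffer library. These were 2 of the 18 regions called in either protocol, beside 1.83% of all such regions, and none was called the other way, beside 3.2%. The same CIITA region was called in both unpurified libraries and neither SDS buffer library, 1 of 21 regions beside 2.4% of all. HLA-DRA was the reverse, called with 11 reads in both SDS buffer libraries and in neither unpurified library, 1 of 21 beside 2.82%. Between the unpurified and the non-SDS buffer libraries there was no such region in either direction, beside 2.7% and 1.76%. No test was made of these counts of 1 or 2 regions.

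Among the 7 regions in all 6 libraries, relative height was higher in both non-SDS buffer libraries than in both SDS buffer libraries at the CLEC16A promoter, a BRD2 promoter region and the region upstream of HLA-DQA1, 3 of 7 beside 21.6% of all regions in 6 libraries, and lower at none, beside 15.7%. It was higher in both unpurified libraries than in both SDS buffer libraries at none of the 7, beside 22.5%. At the HLA-DMA promoter both unpurified libraries, 0.581 and 0.433, were below both SDS buffer libraries, 0.774 and 0.815, 1 of 7 beside 14.6%. Against the non-SDS buffer, both unpurified libraries were lower at the CLEC16A promoter and the same BRD2 region, 2 of 7 beside 14.9%, and higher at none, beside 16.6%. At the CD74 promoter the values were 2.55, 2.22, 2.29, 2.31, 2.52 and 2.17, and all 3 protocols overlapped.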

How the data were processed

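Peak lists of 6 bulk ATAC-seq libraries were used. Per the labels and methods, the authors aligned reads to hg19 using Bowtie2 2.1.0, filtered them on pairing and mapping quality, dropped duplicates (Picard 1.79) and mitochondrial reads, and ran MACS2 narrow peak calling with a q cutoff of 0.01. For MACS2 the version is not given in the sources used here. In the paper, the methods describe merging samples before peak calling, but 1 list per library was given. The deposited lists hold a score per peak, a ratio that is the fold of the summit over its local background, and p and q values as −log10. Purification with the new buffer comes from the study's figure legend.

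Summit reads and local background were solved from fold and p, exactly within 0.001 for 100% of peaks. Read totals were not given, so depth is relative, set by the lowest background. Regions, promoters (1000 bp on each side of protein-coding starts, GENCODE 44 on GRCh37) and ranks by −log10 q were computed with Python 3.11.15, NumPy 2.4.6, pandas 2.3.3 and SciPy 1.17.1. Reads needed for a call were estimated from the local background and the lowest p of a list. They are thus the least that a call needs, and a summit without a call may hold more. Sequences are from the GRCh37 reference. In a check of the code, 100% of 20000 summit read numbers, simulated with the formulas used to solve them, and 200 of 200 planted regions were recovered. Planted regions had no missed calls, so this does not measure error in the deposited lists. Merging was checked against bedtools 2.31.1. For each gene the promoter region and the region of highest mean −log10 q are named, for CIITA every region near its starts, protocol-specific regions by highest −log10 q, and pathway genes without a promoter peak in all 6 libraries. The other genes and regions named, the stretches around the Y box letters, the MHC span, canonical transcript bodies and the results without promoters of other genes were chosen after the data were examined. The members and lists were chosen with earlier results of these data known. Some sequences and their matches are not reported here.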

Additional observations from a re-analysis of the deposited data

How the results depend on the processing

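The count of 2 genes with a promoter peak in all 6 libraries, CD74 and HLA-DMA, was 2 with stricter peaks (−log10 q from 5 up), 30136 peaks per library, a window of 500 bp, canonical starts only or peaks mostly inside the promoter, and 2 to 3 with 1 library left out, where the third gene, CIITA, was added without SDS buffer replicate 2. The number of libraries with a promoter peak was less stable: with the stricter peaks it fell from 3 to 1 at HLA-DRA, 1 to 0 at HLA-DRB1 and HLA-DMB, 2 to 0 at HLA-DPA1, 2 to 1 at HLA-DPB1 and 5 to 4 at CIITA, with 30136 peaks per library it was the same as with stricter peaks except 1 at HLA-DMB and 5 at CIITA, with 500 bp it fell to 0 at HLA-DMB, and with canonical starts it fell from 3 to 1 at HLA-DQB1 and 2 to 0 at HLA-DPA1. The count of regions in all 6 libraries fell from 7 to 4 with gene bodies only, 3 without promoters of other genes and 2 with canonical transcript bodies, and was 7 to 8 with 1 library left out. The difference in peak number between unpurified and non-SDS buffer libraries, -0.5, became 0.5 with the stricter peaks and with gene bodies only, and ranged from -2 to 1 with 1 library left out (1 without non-SDS buffer replicate 1, 0.5 without unpurified replicate 2). The other differences in peak number ranged from 0.5 to 3.5. The difference in relative height between non-SDS and SDS buffer, 0.124, was -0.0436 without promoters of other genes, where that between unpurified and non-SDS buffer libraries went from -0.124 to -0.0540 (exact permutation p = 1). That between unpurified libraries and SDS buffer, -0.000384, was -0.0976 without promoters of other genes, 0.0136 with 20 kb on each side and 1.64 in reads that were not scaled. With 1 library left out, this difference ranged from -0.0897 (without unpurified replicate 1) to -0.0044 (without unpurified replicate 2). No p fell below 0.333. Replicate numbers did not pair the libraries: deviations of libraries with the same number correlated by -0.00417, -0.00264 and 0.0146 over 20064 regions. With the replicate block each difference was as without it (2, 1.5, -0.5, 0.124, -0.000384 and -0.124), and the smallest p of the block is 0.5. At HLA promoters that a library did not call, the number of reads is unknown, and the 8 to 13 needed by estimate are a lower bound.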
